A study of Mus musculus with 8 samples.

Results

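The genes described here are the protein-coding zinc finger genes of chromosomes 7 and 13 of the mouse whose symbol is Zfp followed by a digit. By position and symbol 137 genes were members, 96 on chromosome 7 and 41 on chromosome 13, out of 22430 genes listed in the count table. The rule itself uses symbol and position only, though it was set with earlier results of these data known. The study compared poly(A) RNA of brain hemispheres from 4 young adult males aged 6 months (6m) with that from 4 aged males of 24 months (24m). Both ages were C57Bl/6JRj mice with no treatment or allele named in the labels, 1 library was made per animal, and the p-values below therefore describe the spread between animals. Genes were called at an edgeR adjusted p of at most 0.05 and an absolute log2 fold change of at least 0.58, and all fold changes are 24m against 6m.

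Most Zfp genes encode proteins with tandem Cys2-His2 zinc fingers, small folds held by a zinc ion that read DNA a few bases at a time. Many also carry a KRAB box, a short domain that recruits the co-repressor Trim28 and through it the histone methyltransferase Setdb1, and such proteins are known for silencing transposable elements and some imprinted genes. The family grew by local duplication, so its genes lie in clusters of related copies, and these clusters are the unit of description here. The symbol also takes in a few unrelated genes, among them Zfp36 (tristetraprolin), an RNA-binding protein with Cys-Cys-Cys-His fingers that destabilises mRNAs.

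All 137 members were listed in the count table, 133 had a count in some library and 131 passed the filter on low counts. Zfp1000, Zfp997, Zfp998 and Zfp999, neighbours in 1 cluster of chromosome 13, were at 0 in all 8 libraries, which allows up to 0.0290 to 0.0473 CPM (counts scaled to library size, with TMM factors in the values that follow) per library by a limit of 3 counts. Zfp936 had 3 counts in all, and Zfp977 had 43 counts spread over the 8 libraries, with too few libraries past the filter for a test. Translated coding sequences of the annotation held 0 to 33 Cys2-His2 fingers per member (median 11), and 75 members matched a strict KRAB pattern, 93 a wider one. The members without a finger pattern or with a single one were Zfp36 and Zfp428.

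Members within 1 Mb of each other, in runs of at least 3, formed 10 clusters holding 117 members, while the other 20 lay apart. Chromosome 7 held clusters 7A to 7H and chromosome 13 held clusters 13A and 13B, named by order along the chromosome on GRCm39. The largest was 13B at chr13:65426610-67975804, with 28 members from Zfp369 to Zfp273, of which 26 matched the wider KRAB pattern. Next in size came 7F at chr7:29467960-29869215 with 15 members from Zfp84 to Zfp146, and 7D at chr7:23781314-24927712 with 14 members from Zfp180 to Zfp526.

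A sequence of 12 bases recurred at the starts of these genes, most often in clusters 7F and 13B. Windows from 250 bases before to 50 bases after the start of the canonical transcript were read from GRCm39 for each member. Of all runs of 12 bases, counted on both strands after the data had been seen, GGGAAATGTAGT was present in the most members. It occurred in 32 of 137 members (23.4%), against 0.735% of 21770 protein-coding genes and 2.48% of 282 Zfp genes of other chromosomes. The protein-coding genes include the members, and picking the run in the members' own windows itself favours a higher share there. By cluster it was found in 9 of 15 members of 7F and 14 of 28 members of 13B, in 2 of 11 of 7B, 1 of 7 of 7C, 3 of 14 of 7D and 2 of 9 of 7E, and in 0 of 6, 0 of 10, 0 of 13 and 0 of 4 of 7A, 7G, 7H and 13A. The run began at a median of -32.5 bases from the start site over its 34 occurrences, and lay on the strand of the gene in 26 of them. Some gene starts in these windows are duplicated copies, so they are not independent occurrences. The windows that follow, each 60 bases long and read 5′ to 3′ on the gene's strand, are those of 4 members of 7F that were higher at 24m. They were picked for holding the run, which is in capitals, and the bases next to it are in part shared as well.
Zfp84 (chr7:29467944-29468003, plus strand): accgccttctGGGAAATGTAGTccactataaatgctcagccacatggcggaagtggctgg
Zfp790 (chr7:29515383-29515442, plus strand): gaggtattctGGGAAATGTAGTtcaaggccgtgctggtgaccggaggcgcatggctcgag
Zfp568 (chr7:29683110-29683169, plus strand): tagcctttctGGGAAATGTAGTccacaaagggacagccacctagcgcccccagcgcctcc
Zfp260 (chr7:29794182-29794241, plus strand): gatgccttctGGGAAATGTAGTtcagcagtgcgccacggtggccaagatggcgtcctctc

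In cluster 13B the same run was often followed by TGACGTCA, the palindromic letters of a cAMP response element. That motif was found in 7 of 28 start windows of 13B (25.0%), in 6.57% of all members, in none of the members of the 8 clusters of chromosome 7 and in 2.44% of protein-coding genes. Of the 9 members with TGACGTCA, 8 also held the run. Each pair is given for 6 members of 13B, with both stretches in capitals, followed by Zfp458 and Zfp759, in which the run is present and TGACGTCA is not.
Zfp595 (chr13:67480626-67480685, minus strand): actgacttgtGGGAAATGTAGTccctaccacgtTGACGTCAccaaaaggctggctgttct
Zfp874a (chr13:67599728-67599787, minus strand): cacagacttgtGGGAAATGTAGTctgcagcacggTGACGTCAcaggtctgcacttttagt
Zfp874b (chr13:67632358-67632417, minus strand): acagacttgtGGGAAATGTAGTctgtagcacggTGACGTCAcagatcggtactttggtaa
Zfp457 (chr13:67454506-67454565, minus strand): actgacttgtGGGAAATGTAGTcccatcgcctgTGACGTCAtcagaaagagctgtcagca
Zfp953 (chr13:67508717-67508776, minus strand): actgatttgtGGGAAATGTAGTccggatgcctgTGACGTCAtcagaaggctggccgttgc
Zfp87 (chr13:67674292-67674351, minus strand): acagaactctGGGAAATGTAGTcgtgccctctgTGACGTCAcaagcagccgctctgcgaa
Zfp458 (chr13:67417187-67417246, minus strand): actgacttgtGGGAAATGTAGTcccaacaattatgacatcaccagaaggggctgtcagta
Zfp759 (chr13:67276230-67276289, plus strand): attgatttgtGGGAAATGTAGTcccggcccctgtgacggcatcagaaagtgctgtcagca

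The comparison of ages asked how these genes differed between the young adult and the aged brain. Of 131 members tested, 42 were called higher at 24m (32.1%) and 9 lower (6.87%), where 25.3% of all 16730 tested genes were called higher and 18.3% lower (43.6% in either direction). At the adjusted p alone 56 members were higher and 20 lower, where 32.7% and 29.9% of all genes were. The median log2 fold change of the members was 0.38, against -0.00 over all genes. All 24m libraries lay above all 6m libraries for 43 members and below them for 21, where 28.4% and 26.8% of all genes did so, 55.2% together. The Zfp genes of other chromosomes gave similar shares, with 87 higher (34.1%) and 20 lower (7.84%) of 255 tested and a median of 0.32. In bulk tissue, fewer cells of a type and less RNA per cell cannot be told apart.

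The members were also counted by chromosome. On chromosome 13, 18 of 37 tested members were higher and 1 lower, with a median of 0.71. On chromosome 7 the counts were 24 higher (25.5%, near the 25.3% of all genes) and 8 lower of 94, with a median of 0.29. Of these, 39 were higher and 1 lower by library totals alone, and 30 and 13 without 24m replicate 1. The medians of chromosomes 13 and 7 were 0.72 and 0.11 with the length trend removed, and with the GC trend removed 0.47 and 0.17. By library totals alone, which raised the median of all genes to 0.21, the median of the members was 0.60 and 61 were called higher against 2 lower. The distance of the members' median from that of all genes was 0.38 under both scalings. With the length trend removed the members' median was 0.21 and the distance 0.24, and with the GC trend removed they were 0.24 and 0.29. Of the 9 lower calls, 7 were lost by library totals alone, and those of Zfp428 and Zfp369 were kept.

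**Figure D1:**
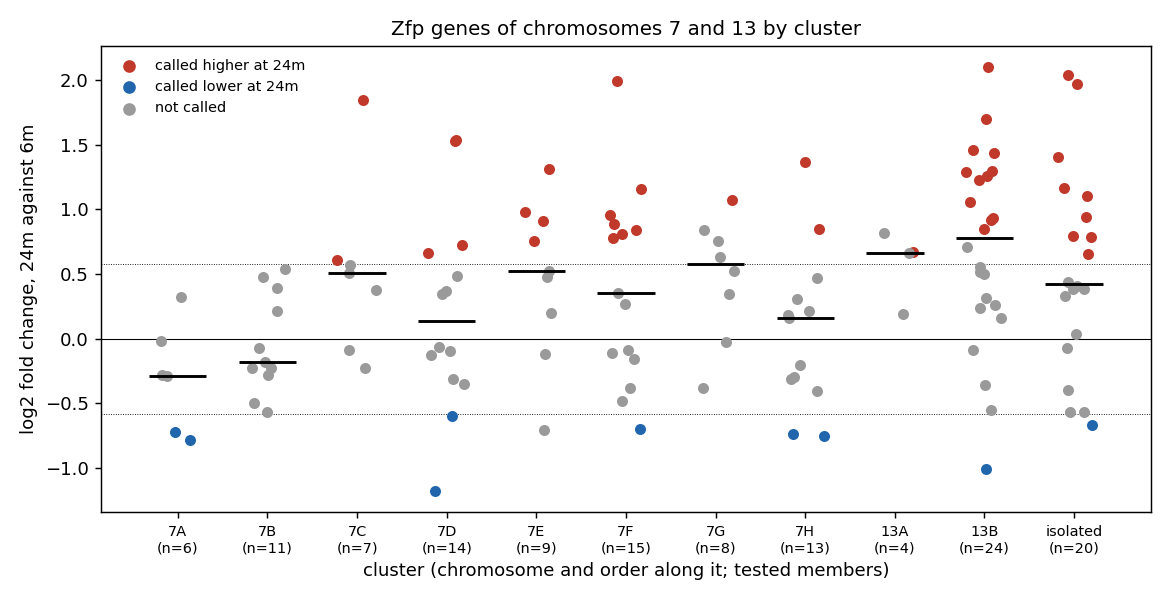
Log2 fold change of each tested member, 24m against 6m (vertical axis), by cluster along chromosomes 7 and 13 and for isolated members (horizontal axis). Points are members coloured by call, black bars are medians and dotted lines mark the fold-change threshold. Called members sit above 0 in 7C, 7E, 7G, 13A and all but Zfp369 of 13B, while the only called members of 7A lie below 0.

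Cluster 13B had the highest median, 0.78, with 12 of its 24 tested members higher and 1 lower, and its median was 0.51 with the GC trend removed. Several of these genes are known as regulator of sex-limitation candidates, a group of KRAB genes first studied for sex-dependent liver genes. Among the members of at least 1 CPM, Zfp729a (chr13:67760882-67785921) was at 0.579, 0.948, 0.813 and 0.378 CPM in the 6m libraries, in the order of replicates 1 to 4, and at 1.13, 2.46, 1.83 and 3.45 CPM in those of 24m. All 24m values exceeded all 6m values, and the lowest 24m value was that of replicate 1. Its log2 fold change was 1.70 (SE 0.38, adjusted p = 0.00333 by edgeR).

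The next member along the chromosome on the same strand, Zfp738 (chr13:67806804-67835190), a KRAB gene with 20 fingers, was at 1.08, 0.877, 1.03 and 0.832 CPM at 6m and 1.72, 2.88, 2.17 and 3.73 CPM at 24m. The ages did not overlap, and the log2 fold change was 1.46 (SE 0.25, adjusted p = 0.000795 by edgeR). Zfp729b, on the other side of Zfp729a, was at 0.701 to 1.12 CPM at 6m and 1.58 to 2.74 CPM at 24m, a log2 change of 1.29 (SE 0.25, adjusted p = 0.00170 by edgeR). These 3 neighbours share 100-base exonic stretches, over 5.56% of Zfp729a, 14.0% of Zfp738 and 7.40% of Zfp729b counting copies in other genes too, so part of their reads could be assigned to more than 1 of them. How such reads were counted is not given in the sources used here.

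Below 1 CPM, and picked after the values were seen, Zfp458 had the largest rise of all members. It was at 0.137, 0.198, 0.199 and 0.0757 CPM at 6m and 0.376, 0.661, 0.768 and 0.837 CPM at 24m, with 269 counts in all, a log2 change of 2.1 (SE 0.35, adjusted p = 0.000810 by edgeR). Its 24m values were all higher than its 6m values. The other called members of 13B were Zfp65 (1.44), Zfp759 (1.30), Zfp456 (1.26), Zfp455 (1.23), Zfp874a (1.06), Zfp712 (0.94), Zfp595 (0.92) and Zfp874b (0.85), the log2 fold changes being given in parentheses. The call of Zfp712 was made in 11 of 16 alternatives, and those of Zfp595 (0.60) and Zfp874b (0.56) were lost with the GC trend removed. Zfp456 rested on 85 counts, and 65.0% of its exonic 100-base stretches occur elsewhere in annotated genes.

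Zfp87, the member of 13B with the highest level per kilobase of exon, differed less than these. It was at 7.25, 7.52, 7.15 and 6.51 CPM at 6m and 8.13, 8.36, 8.11 and 9.50 CPM at 24m, which do not overlap. Its log2 fold change of 0.26 missed both thresholds (SE 0.11, adjusted p = 0.0516 by edgeR). Zfp457, with the pair of sequences shown above, had a log2 change of -0.55 that was not called (SE 0.28, adjusted p = 0.109 by edgeR).

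The 1 member of 13B that fell was Zfp369 (chr13:65426610-65452036), also known as Nrif2, a relative of a protein that binds the neurotrophin receptor p75. Its level was 8.64, 7.07, 9.01 and 8.29 CPM at 6m and 2.62, 4.42, 3.79 and 5.59 CPM at 24m. No 24m library reached the 6m range, and the log2 fold change was -1.01 (SE 0.21, adjusted p = 0.00243 by edgeR). Zfp369 lies at the proximal edge of the cluster and shared no 100-base stretch with another gene. Its counterpart on chromosome 7, Zfp110 (Nrif1, chr7:12568660-12584513) in cluster 7C, differed in the other direction. Zfp110 was at 8.82, 9.39, 9.45 and 8.47 CPM at 6m and 12.4, 13.7, 13.2 and 15.7 CPM at 24m, a log2 change of 0.61 (SE 0.11, adjusted p = 0.000969 by edgeR). This call lies close to the fold-change threshold and was lost without 6m replicate 4 (0.575), without 24m replicate 4 (0.536) and with the GC trend removed (0.442).

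The other cluster of chromosome 13, 13A (chr13:62277700-62771996), held 4 members with a median of 0.67. Zfp935 was called there, at 0.777, 0.778, 0.730 and 0.469 CPM at 6m and 0.985, 1.16, 0.925 and 1.33 CPM at 24m. Its log2 fold change was 0.67 (SE 0.21, adjusted p = 0.0192 by edgeR), and 56.5% of its exonic stretches occur elsewhere. The value was 0.40 with the GC trend removed, 0.53 without 6m replicate 4 and 0.57 without 24m replicate 4, none of them called. With the GC trend removed, and likewise without 6m replicate 4, 0 members of 13A were called and its median was 0.42. Without 6m replicate 3, by library totals alone and with the length trend removed, 2 were called.

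**Figure D2:**
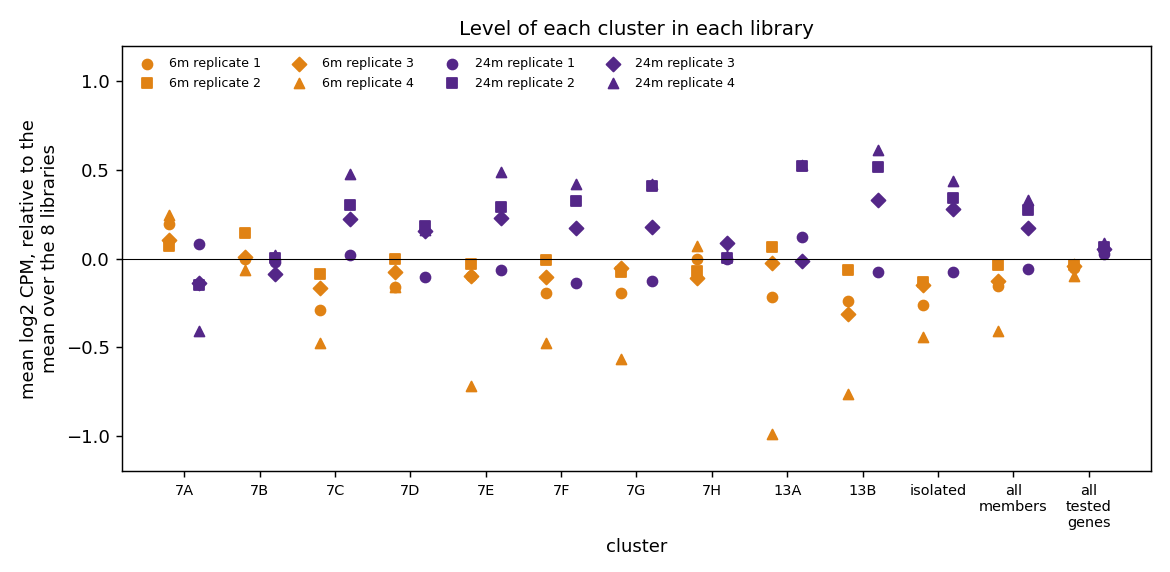
Mean log2 CPM of the tested members of each cluster in each library, relative to the mean over the 8 libraries (vertical axis), for clusters, isolated members, all members and all tested genes (horizontal axis). In 13B the 6m libraries sit between -0.77 and -0.06 and 24m replicate 1 at -0.08, while 24m replicates 2 to 4 sit between 0.33 and 0.61.

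Libraries of 1 age were not equal in these genes. Over all tested members the mean log2 deviation was -0.15, -0.03, -0.12 and -0.41 in the 6m libraries and -0.06, 0.27, 0.17 and 0.33 in the 24m libraries, by replicate number. Replicate 1 of 24m, which also had the most counts (103462414, against 63460940 to 77044751 in the other libraries), lay within the 6m range, and 6m replicate 4 was the lowest. Without 24m replicate 1, 51 members were called higher and 14 lower, and all 51 calls of the full comparison were kept. Without 6m replicate 4, 38 were higher and 10 lower, with 6 of the higher calls and 1 of the lower lost.

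On chromosome 7, cluster 7F had 7 of 15 members higher and 1 lower, with a median of 0.35. With the GC trend removed 6 were higher and 2 lower and the median was 0.14, by library totals alone 7 and 0 with a median of 0.57. Zfp74, with 18 fingers and a KRAB box, was at 2.47, 2.40, 1.86 and 1.32 CPM at 6m and 3.30, 4.61, 4.62 and 5.46 CPM at 24m. The ages did not overlap and the log2 fold change was 1.16 (SE 0.22, adjusted p = 0.00169 by edgeR). Zfp568, a KRAB gene known to repress a placental transcript of Igf2, was at 0.137, 0.226, 0.166 and 0.0908 CPM at 6m and 0.338, 0.886, 0.624 and 0.665 CPM at 24m. Its log2 fold change of 1.99 (SE 0.36, adjusted p = 0.00124 by edgeR) rested on 257 counts, and it was picked after its value was seen. Also higher were Zfp84 (0.95), Zfp260 (0.88), Zfp146 (0.84), Zfp790 (0.81) and Zfp382 (0.78). The calls of Zfp790 and Zfp382 were lost with the length trend removed (0.53 and 0.40), and that of Zfp382 with the GC trend removed too.

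Zfp30 fell within the same cluster, between Zfp84 and Zfp790. It was at 16.4, 15.4, 16.4 and 15.9 CPM at 6m and 9.01, 9.69, 10.3 and 10.6 CPM at 24m, with a narrow spread within each age and no overlap. The log2 fold change was -0.70 (SE 0.09, adjusted p = 0.000234 by edgeR), and -0.48 by library totals alone, which is not called. Zfp383, the member of 7F with the highest level per kilobase, was at 4.21 to 6.59 CPM at 6m and 6.48 to 7.93 CPM at 24m. These ranges overlap, and its log2 fold change of 0.35 was not called (SE 0.15, adjusted p = 0.0698 by edgeR).

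Cluster 7E (chr7:27388765-28079710) had 4 of 9 members higher, 0 lower and a median of 0.52, which was 0.31 with the length trend and 0.33 with the GC trend removed. The higher members were Zfp626 (1.31), Zfp60 (0.98), Zfp59 (0.91) and Zfp780b (0.75), each with at least 16 fingers and the wider KRAB pattern. The call of Zfp780b was made in 12 of 16 alternatives. Zfp36 closes this cluster and had its highest level per kilobase. It was at 3.34, 3.14, 3.23 and 3.19 CPM at 6m and 3.41, 3.67, 4.78 and 2.97 CPM at 24m, with a log2 change of 0.20 that was not called (SE 0.15, adjusted p = 0.281 by edgeR).

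Clusters 7C (chr7:12145555-12719697) and 7G (chr7:41282627-43268550) had medians of 0.51 and 0.57. In 7C Zfp551 (chr7:12145555-12156685), with 13 fingers and a KRAB box, was at 0.564, 0.778, 0.746 and 0.272 CPM at 6m and 1.06, 2.41, 2.01 and 3.05 CPM at 24m. Each 24m value exceeded each 6m value and the log2 fold change was 1.85 (SE 0.38, adjusted p = 0.00224 by edgeR). In 7G 1 of 8 tested members was called, Zfp976, with 69 counts in all and a log2 change of 1.07 (SE 0.39, adjusted p = 0.0371 by edgeR). This call was made in 6 of 16 alternatives, and 0 members of 7G were called by DESeq2, with the GC trend removed or without 6m replicate 4. Without 24m replicate 1, 4 were called higher. Zfp788, the member of 7G with the highest level per kilobase, was at 8.52 ± 1.67 CPM at 6m and 8.37 ± 1.75 CPM at 24m (SD, n = 4), a log2 change of -0.03 (SE 0.19).

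Cluster 7D had 4 of 14 members higher (28.6%) and 2 lower (14.3%), near the 25.3% and 18.3% of all genes, and its median of 0.14 was -0.02 with the length trend removed. Zfp526 (chr7:24920843-24927712), with 13 fingers and no KRAB box found, was at 3.22, 3.86, 3.48 and 3.77 CPM at 6m and 8.89, 10.9, 10.9 and 10.9 CPM at 24m. The gap between the ages was several times the spread within them, and the log2 fold change was 1.54 (SE 0.12, adjusted p = 2.42e-05 by edgeR). Zfp109 (chr7:23924765-23936985) was at 0.914, 0.933, 0.929 and 0.530 CPM at 6m and 1.26, 2.87, 2.64 and 2.81 CPM at 24m, which do not overlap, for a log2 change of 1.53 (SE 0.29, adjusted p = 0.00153 by edgeR). Zfp180 (0.72) and Zfp111 (0.66) were higher as well, both calls being lost with the length trend removed (0.49 and 0.21).

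Within 7D the largest fall of all members was that of Zfp428 (chr7:24206358-24215111), a short protein in which a single finger was found. It was at 138, 123, 130 and 156 CPM at 6m and 78.2, 58.6, 56.0 and 48.5 CPM at 24m. No 24m library came near the 6m range, the log2 fold change was -1.18 (SE 0.14, adjusted p = 0.000166 by edgeR) and the gene overlapped 1 gene annotated on the other strand. Zfp575 was also lower (-0.60, SE 0.11), a call that was lost in 5 of 16 alternatives. Zfp574, with 18 fingers, had one of the smallest differences among members of at least 5 CPM, at 63.1 to 70.0 CPM at 6m and 58.9 to 67.6 CPM at 24m (log2 fold change -0.06, SE 0.08).

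Clusters 7A and 7B had the lowest medians, without a test between clusters. In 7A (chr7:4918183-5056722), 0 of 6 members were higher and 2 lower, with a median of -0.29 that kept its sign under the scalings tried (-0.07 by library totals alone). Zfp580 (chr7:5054537-5056722) was at 44.0, 43.1, 43.1 and 46.3 CPM at 6m and 31.4, 26.6, 27.5 and 21.7 CPM at 24m, a log2 change of -0.72 (SE 0.11, adjusted p = 0.000549 by edgeR). Its ages did not overlap, but the value was -0.12 with the length trend removed (adjusted p = 0.194 by edgeR) and -0.42 with the GC trend removed. Zfp524 (chr7:5017414-5022112) was at 17.4, 17.1, 16.8 and 19.9 CPM at 6m and 13.9, 9.76, 9.77 and 7.74 CPM at 24m, a log2 change of -0.79 (SE 0.17, adjusted p = 0.00267 by edgeR). By library totals alone it was -0.580 and with the length trend removed -0.51, and under both settings 0 members of 7A were called.

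Zfp628, also in 7A, had 35.6 ± 2.65 CPM at 6m and 35.1 ± 5.49 CPM at 24m (SD, n = 4), a log2 change of -0.02 (SE 0.12). In 7B (chr7:6134486-7212997) 0 of 11 members were called in either direction, and 1 passed the adjusted p alone upward and 2 downward. By library totals alone 3 were called higher and 0 lower, and with the length trend removed 0 higher and 2 lower. Without 6m replicate 2, 2 members of 7B were called higher and 1 lower, and without 24m replicate 1, 1 higher and 2 lower. The median of 7B was -0.18, and it was 0.03 by library totals alone, -0.33 with the GC trend removed and -0.12 without 6m replicate 2. Zfp444, its member of highest level per kilobase, was at 78.8, 71.2, 72.0 and 86.7 CPM at 6m and 69.6, 52.1, 51.7 and 45.2 CPM at 24m. Its log2 fold change of -0.50 missed the fold-change threshold (SE 0.13, adjusted p = 0.00902 by edgeR), and it was called lower with the length trend removed (-0.65) and without 24m replicate 1 (-0.61).

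Cluster 7H (chr7:126832057-127837203) held 13 members with a median of 0.16, which was -0.02 with the length trend removed. Of these members 2 were higher (15.4%) and 2 lower (15.4%), where 25.3% of all tested genes were higher and 18.3% lower. By library totals alone 3 were higher and 0 lower. Zfp771 (chr7:126843239-126854136) had the highest level per kilobase of all members, 45.1 CPM per kilobase. It was at 172, 141, 153 and 189 CPM at 6m and 130, 92.0, 91.0 and 76.7 CPM at 24m, a log2 change of -0.75 (SE 0.16, adjusted p = 0.00284 by edgeR). This call was lost by library totals alone (-0.54), with the length trend removed (-0.48) and with the GC trend removed (-0.45). Zfp688, with 2 fingers and a KRAB box, was at 36.3, 33.4, 32.2 and 40.2 CPM at 6m and 28.1, 19.5, 20.7 and 16.7 CPM at 24m, a log2 change of -0.74 (SE 0.15, adjusted p = 0.00250 by edgeR) that was -0.53 and not called by library totals alone. Neither gene had overlapping ranges at the 2 ages, and 24m replicate 1 was the nearest to 6m in both.

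Zfp696 (1.37, SE 0.20) and Zfp629 (0.85, SE 0.17) were the higher members of 7H, and Zfp629 was at 0.53 and not called with the length trend removed. Zfp768 was at 32.3 to 38.8 CPM at 6m and 21.8 to 32.2 CPM at 24m, and its log2 fold change of -0.40 did not pass the fold-change threshold (SE 0.13, adjusted p = 0.0185 by edgeR).

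Among the 20 members outside clusters, 9 were higher and 1 lower, with a median of 0.42. The counts were 12 and 0 by library totals alone, and without 24m replicate 1 9 were higher and 3 lower. Zfp507 (chr7:35471768-35502436), with 9 fingers and no KRAB box found, had the largest rise of members of at least 1 CPM. It was at 1.43, 1.99, 2.04 and 1.21 CPM at 6m and 4.12, 5.85, 6.81 and 10.6 CPM at 24m. The ages were well apart although the 24m libraries varied, and the log2 fold change was 2.04 (SE 0.30, adjusted p = 0.000383 by edgeR). Its start window (chr7:35502387-35502686, minus strand) is shown because it held 2 of the 6 motifs searched first, in capitals and both on the other strand: a GC box (GGGCGG, found in 24.8% of members and 42.5% of protein-coding genes) and a YY1 motif of 10 bases, the second stretch of capitals (2.19% and 0.831%).
Zfp507: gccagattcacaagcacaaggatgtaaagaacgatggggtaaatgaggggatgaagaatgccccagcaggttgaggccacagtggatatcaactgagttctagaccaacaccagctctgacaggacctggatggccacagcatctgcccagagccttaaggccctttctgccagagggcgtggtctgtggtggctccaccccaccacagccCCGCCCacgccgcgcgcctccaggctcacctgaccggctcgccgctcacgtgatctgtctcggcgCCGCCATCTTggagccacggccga

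Zfp346, which encodes a protein that binds double-stranded RNA, was at 6.25, 8.78, 6.27 and 6.61 CPM at 6m and 14.5, 16.7, 16.1 and 15.5 CPM at 24m. With no overlap between ages, its log2 fold change was 1.17 (SE 0.13, adjusted p = 0.000112 by edgeR). Zfp169 (1.10, SE 0.14), Zfp619 (1.40, SE 0.32), Zfp322a (0.94), Zfp367 (0.79), Zfp710 (0.79) and Zfp941 (0.66) were higher too. With the length trend removed the calls of Zfp322a (0.53), Zfp710 (0.40) and Zfp941 (0.58) were lost, and with the GC trend removed those of Zfp367 (0.55) and Zfp941 (0.41). Zfp366, known in dendritic cells as DC-SCRIPT, was called on 112 counts, with a log2 change of 1.97 (SE 0.78, adjusted p = 0.0491 by edgeR), overlapping ages and a call in 3 of 16 alternatives. Zfp511 was the isolated member that fell, from 29.4 to 36.2 CPM at 6m to 17.4 to 23.5 CPM at 24m (log2 fold change -0.67, SE 0.11, adjusted p = 0.000872 by edgeR). This call was lost by library totals alone (-0.45) and with the length trend removed (-0.29). Zfp131, a BTB-domain gene, was at 8.20 to 13.3 CPM at 6m and 7.92 to 12.8 CPM at 24m (log2 fold change -0.07, SE 0.19).

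**Figure D3:**
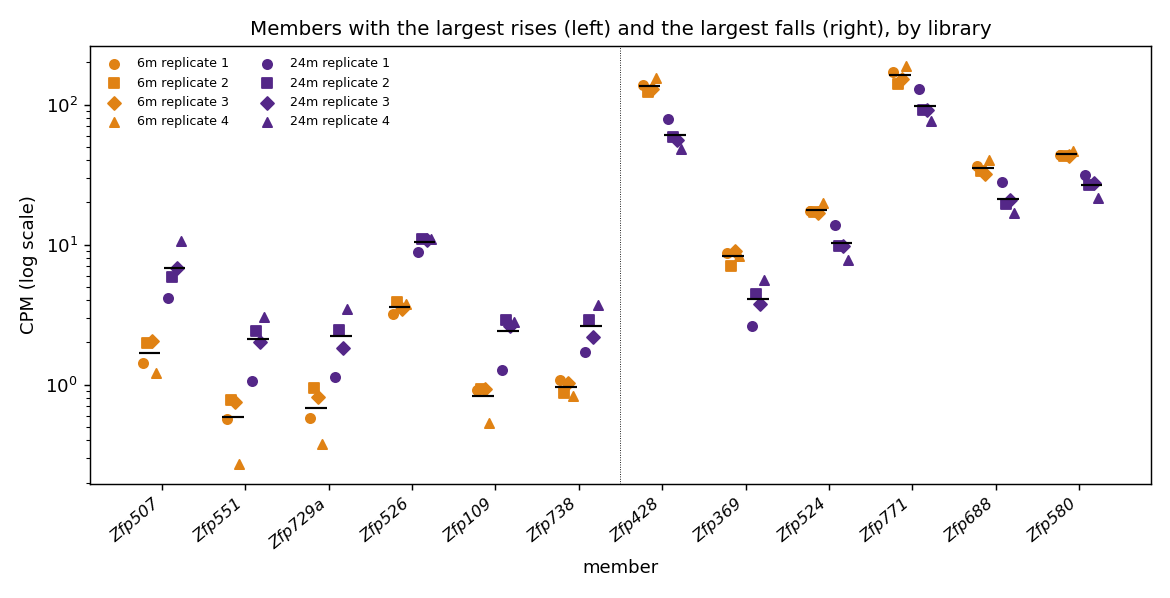
Level in each library (CPM, log axis) of the 6 members with the largest rises and the 6 with the largest falls among called members of at least 1 CPM whose ages do not overlap (horizontal axis). Orange symbols are 6m, purple symbols 24m, each shape a replicate number, and black bars the means of 4 libraries. The members that rose lie between 0.272 and 10.9 CPM, and those that fell reach 189 CPM.

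Members were also counted by their level, with 25.3% of all tested genes higher and 18.3% lower for comparison. Of the 53 members of at least 5 CPM, 8 were higher (15.1%) and 9 lower (17.0%), with a median of -0.09 that turned to 0.13 by library totals alone, with 14 higher and 2 lower. Of the 30 tested members under 1 CPM, 12 were higher and 0 lower, with a median of 0.67 (0.88 by library totals alone). Across the 131 members Spearman's rho of log2 fold change and mean CPM was -0.48, against -0.24 in the Zfp genes of other chromosomes and -0.10 over all tested genes. These are descriptions across genes, which share libraries and are not independent replicates. The filter on low counts can favour low members that are higher in 1 age.

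Members with less than 45% GC in their exons had 29 higher and 1 lower of 66 tested, with a median of 0.66, where all tested genes under 45% GC had 33.9% higher, 13.1% lower and a median of 0.23. The 65 members of 45% GC or more had 13 higher and 8 lower, with a median of 0.04, where 2758 of all 12361 such genes were higher and 2478 lower, with a median of -0.07. By library totals alone these members had 23 higher and 1 lower, with a median of 0.26. Spearman's rho of log2 fold change and GC content was -0.45 in the members, -0.21 over all genes and 0.05 in the Zfp genes of other chromosomes. With a smoothed GC trend removed in each library, an operation that also removes any age difference that follows GC, 32 members were higher and 10 lower, 31 and 6 of them among those called without it. Values for exonic length and the 3′ untranslated region were 0.25 and 0.37, below the 0.42 and 0.52 of all genes. The part of base composition in the differences by cluster was not tested, and 13B and 7A stood near opposite ends with median GC contents of 39.7% and 57.0%.

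**Figure D4:**
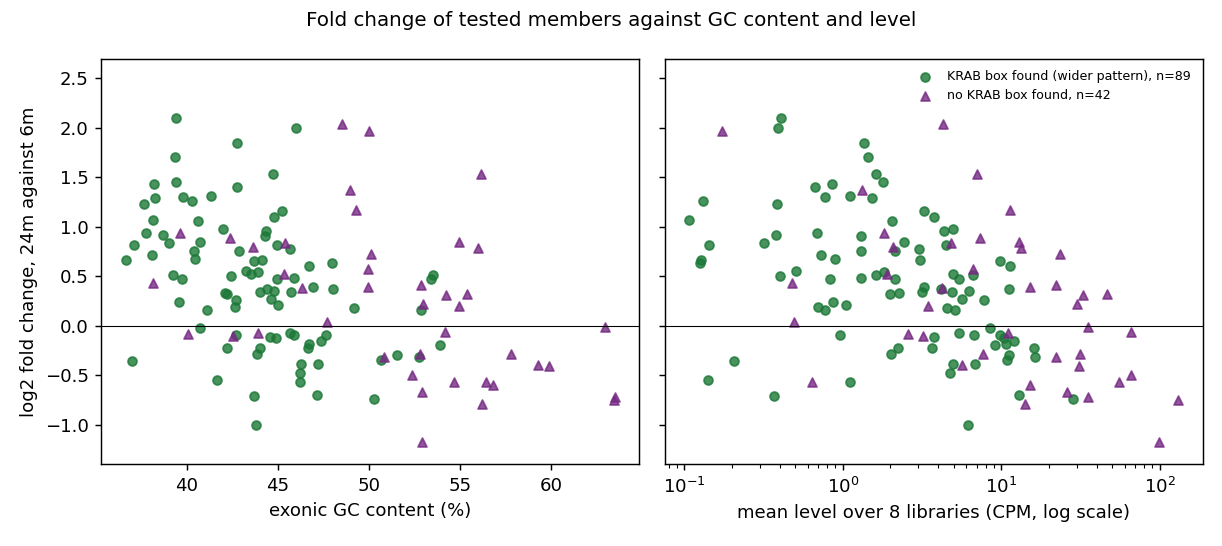
Log2 fold change of the 131 tested members against exonic GC content (left, percent) and mean level over 8 libraries (right, CPM on a log axis). Green circles are the 89 members with the wider KRAB pattern and purple triangles the 42 without it. Points fall from upper left to lower right in both panels, with Spearman's rho of -0.45 and -0.48.

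By protein type, 30 of the 89 tested members with the wider KRAB pattern were higher (33.7%) and 3 lower (3.37%), with a median of 0.47. Among the 42 without it, 12 were higher (28.6%) and 6 lower (14.3%), with a median of 0.21, where 25.3% and 18.3% of all genes were. The counts by library totals alone were 44 higher and 1 lower with the pattern and 17 and 1 without it, and without 24m replicate 1 they were 38 and 4 and 13 and 10. The strict pattern gave 24 higher and 2 lower of 71, against 18 higher and 7 lower of 60 without it. This order was not shared by Zfp genes of other chromosomes, where 26.1% of those with the strict pattern were higher and 41.2% of those without it. On chromosome 13 the median was 0.67 in the 31 tested members with the wider pattern and 0.87 in the 6 without it. With the GC trend removed the medians with and without the wider pattern were both 0.24, and those with and without the strict pattern 0.27 and 0.18, against 0.49 and 0.12 before. The difference between types of protein was not tested.

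Members that held the run GGGAAATGTAGT at their start were all tested, and 14 of 32 were higher (43.8%) and 0 lower, with a median of 0.51. Of 99 tested members without it, 28 were higher (28.3%) and 9 lower (9.09%), with a median of 0.34. Over all tested genes 25.3% were higher, near the share without the run, and 18.3% lower. By library totals alone 16 were higher and 0 lower with the run, and 45 and 2 without it. That setting gave 5449 higher and 1746 lower of all 16730 tested genes. Within 13B 7 of 14 tested members with the run and 5 of 10 without it were higher, and within 7F 4 of 9 and 3 of 6. Among members with the wider KRAB pattern 13 of 28 with the run and 17 of 61 without it were higher. Among those under 45% GC the counts were 13 of 26 and 16 of 40, where 33.9% of all tested genes under 45% GC were higher. Members with TGACGTCA had 3 higher and 0 lower of 9 (33.3% higher, against 25.3% of all tested genes).

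Many members share sequence or overlap with other genes. Of 137 members, 94 overlap another annotated gene and 35 have at least 10% of their exonic 100-base stretches elsewhere in annotated exons. The 41 tested members that overlap no gene had 13 higher and 3 lower with a median of 0.37, and the 98 tested with under 10% shared stretches had 33 higher and 8 lower with a median of 0.36. The 33 tested with 10% or more had 9 higher (27.3%) and 1 lower (3.03%), with a median of 0.47. Over all tested genes 25.3% were higher and 18.3% lower. By library totals alone the counts, in the same order, were 20 and 0, 44 and 2, and 17 and 0. Library preparation kept strand, but whether counting used it is not given in the sources used here.

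Protein-coding genes that lie between members of a cluster without being members gave medians above, near and below those of the clusters. In 7C the 4 tested neighbours had 2 higher and 1 lower and a median of 0.51. The 7 members there had the same median, with 2 higher (28.6%, near the 25.3% of all tested genes) and 0 lower. In 13A there were 2, with 1 higher and a median of 0.76, and in 7A there were 6, with 0 higher, 2 lower and a median of -0.21. Neighbours lay below the members in 7E (0 higher and 5 lower of 13, median -0.49), 13B (0 and 2 of 9, -0.05), 7D (1 and 8 of 23, -0.48), 7H (6 and 11 of 35, -0.29) and 7G (2 and 2 of 9, 0.18). In 7B they lay above, with 5 higher and 0 lower of 7 and a median of 0.84, and 7F held a single tested neighbour, at 0.01.

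Genes through which KRAB proteins act differed one by one, with 5 of 30 tested co-repressor genes higher (16.7%) and 2 lower (6.67%), shares below those of all genes (25.3% and 18.3%). Their median log2 fold change was 0.09. It was -0.12 with the length trend removed, 0.32 by library totals alone (9 higher and 1 lower) and 0.02 without 24m replicate 4. Trim28, the scaffold of this repression, was at 273, 256, 258 and 268 CPM at 6m and 312, 253, 246 and 219 CPM at 24m. Its ages overlap, and its log2 fold change was -0.03 (SE 0.11, adjusted p = 0.792 by edgeR). Setdb1 was at 34.0 to 36.7 CPM at 6m and 32.9 to 34.7 CPM at 24m, a log2 change of -0.08 (SE 0.07, adjusted p = 0.377 by edgeR).

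Trim33, a relative of Trim28, was at 2.60 to 4.54 CPM at 6m and 5.51 to 14.5 CPM at 24m, a log2 change of 1.48 (SE 0.29, adjusted p = 0.00168 by edgeR). The DNA methyltransferase Dnmt3a was at 4.54 to 5.42 CPM and 8.12 to 19.5 CPM, a log2 change of 1.45 (SE 0.23, adjusted p = 0.000575 by edgeR). Pphln1 (1.38) and Tasor (0.68), subunits of the HUSH silencing complex, and Atf7ip (0.83), a partner of Setdb1, were higher too. With the length trend removed Tasor was at 0.07 and Atf7ip at 0.15, neither of them called, while Pphln1 was called in all 16 alternatives. Tasor, whose ages overlap, was called in 8 of 16, and was at 0.39 with the GC trend removed, where Atf7ip was at 0.53, both not called. The third HUSH subunit, Mphosph8, was lower, at 66.3 to 84.8 CPM at 6m and 28.5 to 37.5 CPM at 24m (log2 fold change -1.17, SE 0.11, adjusted p = 5.60e-05 by edgeR). Mbd3, of the NuRD complex, was also lower, at 397 to 509 CPM and 211 to 345 CPM (log2 fold change -0.76, SE 0.15, adjusted p = 0.00177 by edgeR), and its call was lost by library totals alone (-0.55).

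Markers of brain cell types were present in every library. Their summed levels are led by the most abundant gene of a list and do not give the makeup of the tissue. Neuronal markers (9 of 9 tested, 3 higher and 1 lower) summed to 4654 to 5107 CPM at 6m and 5274 to 5671 CPM at 24m. Astrocyte markers (8 of 8, 5 higher and 1 lower, median log2 fold change 1.30) summed to 2892 to 3826 and 2847 to 3844 CPM. Most of that sum was Aldoc, at 2507 ± 356 and 2057 ± 398 CPM (SD, n = 4), while Slc1a3 was higher (1.89) and S100b lower (-1.29). Oligodendrocyte markers (7 of 7, 1 higher) summed to 3414 to 4277 and 3689 to 4271 CPM. Oligodendrocyte precursor markers summed to 126 to 155 and 154 to 189 CPM, microglial markers to 419 to 450 and 428 to 578 CPM, and endothelial markers to 38.8 to 55.8 and 26.7 to 42.6 CPM. Precursors had 1 of 3 higher (33.3%) and microglia 2 of 7 (28.6%). Over all tested genes 25.3% were higher and 18.3% lower. The shares higher were 33.3% of the neuronal, 62.5% of the astrocyte and 14.3% of the oligodendrocyte markers, each from a short list. Of 6 endothelial markers Flt1 (1.24) and Kdr (1.12) were higher and Cldn5 (-1.06) lower. Their part in the differences of the members was not tested.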

How the data were processed

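Poly(A) RNA of 8 brain hemispheres was sequenced in directional libraries as paired-end reads. Per the labels and the study's methods, the authors trimmed reads (Trim Galore), aligned them to GRCm39 (HISAT2 2.1.0) and assigned them to genes with featureCounts, and the deposited values are unnormalised whole-number counts per gene and library. Strand use and treatment of multimapping reads in counting are not given in the sources used here. Totals were 63460940 to 103462414 counts, and replicates differed by more than sampling noise.

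The 16730 genes that had more than 5 counts in 4 or more libraries were tested with edgeR 4.0.16 (R 4.3.3): TMM factors, quasi-likelihood fit, age as the only term, Benjamini-Hochberg adjustment over all tested genes. Standard errors are log2 fold changes divided by the root of F. The fit was also run on simulated counts that had the same spread in every gene and library, unlike these data. That run therefore does not bear on single calls. Of the listed genes, 22281 matched GENCODE M39, a later release than the authors', which gave positions, exons and start windows. Finger and KRAB patterns were searched in its translated canonical coding sequences, since no protein table was used. A finger was C, 2 to 4 residues, C, 12 residues, H, 3 to 5 residues, H. The strict KRAB pattern was LY, any 2, VM, any 1, E, and the wider pattern, added after seeing the data, also took a second motif of the box. The promoter motifs searched first were the CCAAT box, the GC box GGGCGG, the TATA box TATAAA, the cAMP response element TGACGTCA, the ETS motif CCGGAAG and a YY1 motif of 10 bases, on both strands. The run GGGAAATGTAGT was picked after the data were seen, as the 12-base run present in the most member windows.

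The members and gene lists were chosen with earlier results of these data known. Members named in full were the 6 largest and 6 smallest fold changes among called members of at least 1 CPM without overlap, the 5 highest per kilobase, the highest of each cluster and the 4 nearest to 0 of at least 5 CPM. For the co-repressors they were Trim28, Setdb1, the 2 largest and the 2 smallest. Other members given with library values or ranges (Zfp30, Zfp74, Zfp346, Zfp458, Zfp568 and Zfp729b) or with total counts (Zfp366 and Zfp976) were chosen once their values were known. The alternatives tried were other scalings, DESeq2 1.42.0, filters, no fold-change threshold, removal of length or GC trends, the replicate number as a block and each library left out.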

Additional observations from a re-analysis of the deposited data

Results flagged for a closer look

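Values that lie apart from the other 3 libraries of their age by Dixon's test at the 95% level were found in 4 of 60 groups of 4 libraries over the genes named by rule, and in 12 of 262 groups over all tested members. Chance gives about 1 in 20.

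Zfp526 in 24m replicate 1 was at 8.89 CPM, where the other 24m libraries were at 10.9 CPM. Zfp109 in the same library was at 1.26 CPM, against 2.64 to 2.87 CPM in the others. In 6m replicate 4 Zfp109 was at 0.530 CPM, against 0.914 to 0.933 CPM in the other 6m libraries, and Zfp935 was at 0.469 CPM, against 0.730 to 0.778 CPM. Both libraries are also those whose mean over all members lay lowest within their age. Zfp526 and Zfp109 were called higher with either library left out.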

How the results depend on the processing

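The counts are limited by 4 libraries per age and, for members under 1 CPM, by few reads (69 counts over 8 libraries for Zfp976). Of 51 member calls, 20 (18 higher, 2 lower) were made under all 16 alternatives, counting as lost a member that a filter left untested, and no call reversed. Causes of the changes below were not tested.

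By library totals alone 1746 genes were lower, and all genes had a median of 0.21 (log2 fold change). In the members 2 were lower (median 0.60), in other Zfp genes 9 (median 0.54), and in co-repressors 9 were higher and 1 lower (median 0.32). Cluster medians moved to -0.0716 in 7A, 0.0322 in 7B, 0.73 in 7C, 0.36 in 7D and 0.38 in 7H. With the length trend removed the median was -0.0324 over all genes, -0.0185 in 7D, -0.0219 in 7H and -0.12 in co-repressors (3 higher), and 35 other Zfp genes were lower. With the GC trend removed the medians were -0.0445 over all genes, 0.24 in the members, 0.13 in other Zfp genes (36 lower), -0.33 in 7B, 0.14 in 7F, 0.42 in 13A and 0.51 in 13B, and 3 co-repressors were higher. With no fold-change threshold 4999 genes, 20 members, 43 other Zfp genes and 5 co-repressors were lower and 10 co-repressors higher. Leaving out each library in turn gave 36 to 51 members higher and 9 to 14 lower, 4 to 8 co-repressors higher and a median of 0.10 to 0.24 in 7H, the highest value of each without 24m replicate 1. RLE factors and DESeq2 each gave 41 members higher and 9 lower. A limit of 0.5 or 2 Mb between members gave 12 and 8 clusters.

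Same-numbered libraries of both ages correlated at 0.27, 0.14, 0.08 and -0.35 in their deviations from the age means, so the numbers were not treated as a pairing. With the replicate number as a block, 40 members were higher and 11 lower (4112 and 3130 of all genes). Restriction to members whose closest member protein is under 80% identical was not run.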
